A study of Mus musculus with 9 samples.

Results

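The IL-6 family of cytokines and its STAT3 pathway were described in mouse skin by 10 genes, taken by name. The members were IL6, IL11, LIF, OSM, OSMR, IL6RA, IL6ST, LIFR, STAT3 and SOCS3, as the array's probe table spells them, and every probe named for one of them was taken. All 10 genes had a probe, 12 probes in all among the 26423 on the array and 17742 named genes. Il6ra and Lifr had a pair of probes each. Expression was measured on 9 single-channel arrays labelled with Cy5, in 3 groups of 3, from female BALB/c mice treated for 7 days. The mock group had Vaseline cream applied to the shaved back. The group called IMQ received imiquimod, which activates toll-like receptor 7 and is a common way to cause psoriasis-like inflammation in mice. The group called vanillin received the same imiquimod together with 100 mg/kg of oral vanillin, so it stands for the combination, and no group received vanillin alone. Age is not given in the sources used here, and nothing in the labels says whether each array of a group was a different mouse. The p-values therefore rest on array-to-array spread, part or all of which may be technical.

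Cytokines of this family signal through gp130, the shared receptor chain encoded by Il6st. Each ligand reaches gp130 through a partner chain: Il6ra for interleukin-6, Lifr for leukaemia inhibitory factor, and Osmr for oncostatin M. Receptor-bound JAK kinases then phosphorylate STAT3, which enters the nucleus and switches on target genes. One target, Socs3, encodes an inhibitor that binds gp130 and damps the signal. In skin, STAT3 is known for its part in keratinocyte growth, wound repair and psoriasis-like disease.

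Vanillin skin stood out for 3 members, Il6, Lif and Socs3, that were higher there than in both other groups. IMQ skin stood out for a higher Osm and a lower Stat3, and both had moved back toward mock with vanillin. In IMQ against mock, limma with Benjamini-Hochberg adjustment over all probes called 3 of the 10 members at an adjusted p under 0.05, Osm and Il6ra higher and Stat3 lower, while 55.9% of all named genes were called (24.3% higher and 31.6% lower). In vanillin against IMQ it called 5, with Il6, Lif, Stat3 and Socs3 higher and Osm lower, beside 42.8% of all named genes (26.2% higher and 16.6% lower). In vanillin against mock it called 7, with Il6, Lif, Il6ra and Socs3 higher and Il6st, Lifr and Stat3 lower, beside 29.3% of all named genes (13.4% higher and 15.9% lower). A gene with several probes counts here by its brighter one. With the mean of a gene's probes, which leaves Il6ra uncalled, IMQ against mock gave 1 member higher and 2 lower, and vanillin against mock 3 higher and 3 lower. The groups of 3 arrays did not overlap for 5, 9 and 9 of the 10 members in these comparisons, beside 70.0%, 62.0% and 41.1% of all named genes. The median change of the members was 0.02, 0.04 and 0.35 log2 units, beside -0.06, 0.06 and 0.01 for all named genes. The comparisons share arrays, so their values are set side by side and no overlap between them was tested.

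**Figure D1:**
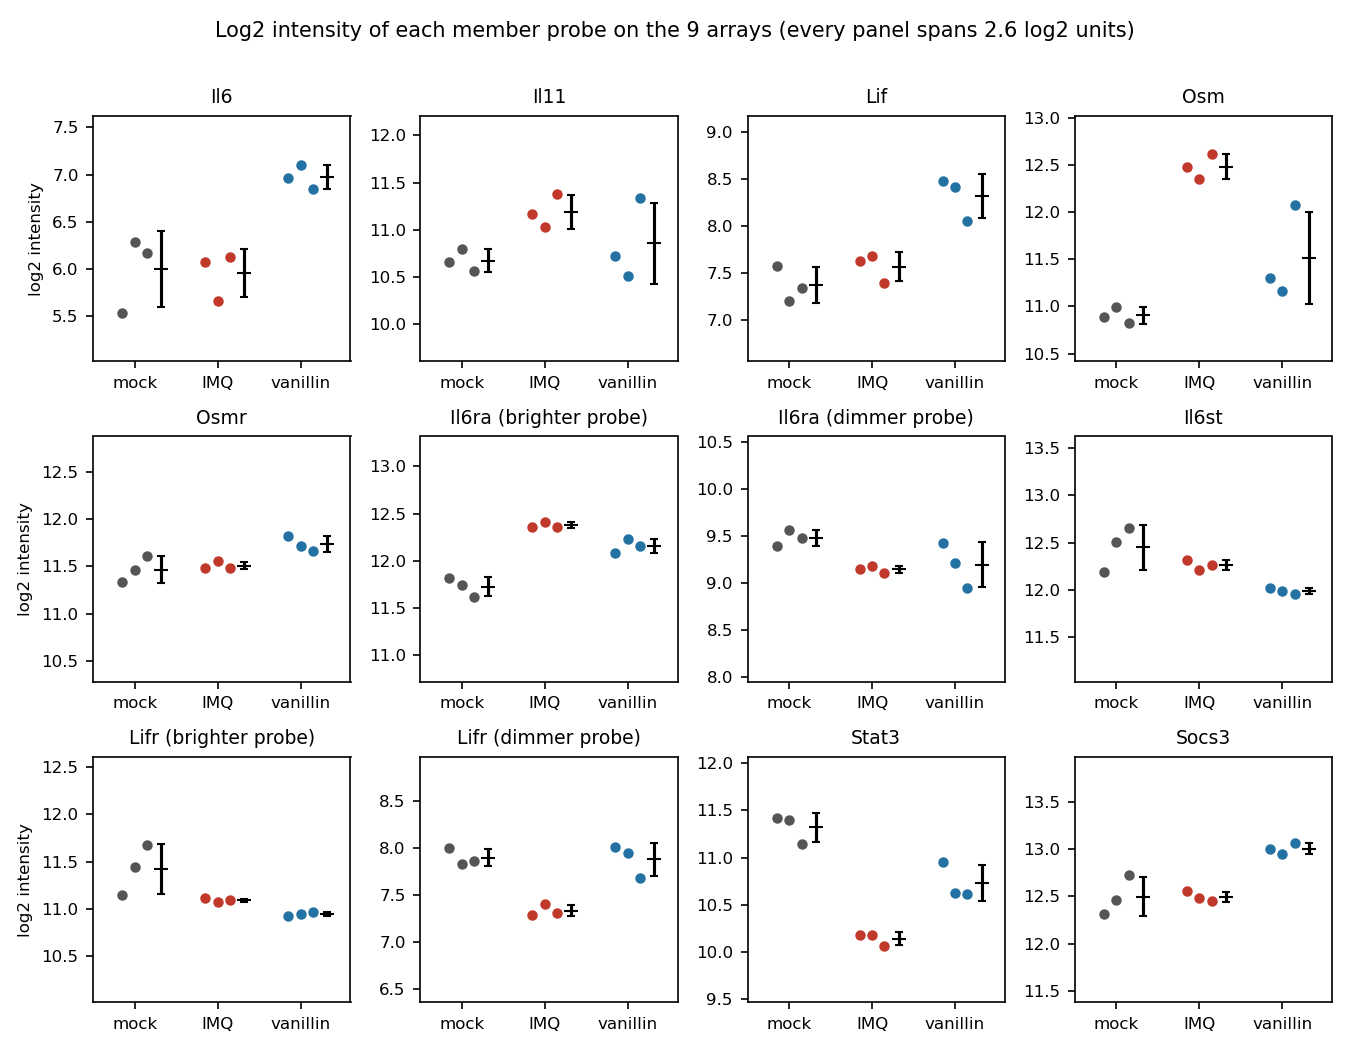
Each panel plots the log2 intensity of 1 probe on the 9 arrays, with a point per array and a black bar for the mean and SD of each group (n = 3). Il6, Lif and Socs3 are highest in vanillin skin, while Osm is highest and Stat3 lowest in IMQ skin.

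Beside the rise of Il6, Lif and Socs3, 9 of 14 neutrophil markers were called higher and 0 lower in vanillin against IMQ, and 8 higher and 1 lower in vanillin against mock. Of 9 skeletal muscle markers 8 were higher and 0 lower against IMQ, and 2 higher and 1 lower against mock. Of 11 monocyte and macrophage markers 5 were higher and 2 lower against IMQ, and 6 higher and 2 lower against mock. The shares of all named genes were 26.2% higher and 16.6% lower against IMQ, and 13.4% and 15.9% against mock. Adipocyte markers gave 7 higher and 1 lower of 11 against IMQ, and endothelial markers 5 and 0 of 10. Fibroblast markers gave 5 and 1 of 11, and T cell markers went the other way, with 3 and 5 of 10. For keratinocyte markers it was 1 and 2 of 14, and for mast cell markers 1 and 1 of 8. The part of any of these cells in the rise of the members was not tested.

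Vanillin replicate 3 agreed least with its group, with correlations of log2 intensity over all probes of 0.984 and 0.985 to the other vanillin arrays, which correlated at 0.994 with each other. Over all probes the SD between the arrays of a group had a median of 0.158 log2 units for mock, 0.0792 for IMQ and 0.170 for vanillin. Without that array limma called 4, 6 and 7 members in the 3 comparisons. Without mock replicate 1 it called 5, 8 and 7. Skin is the labelled tissue, but muscle appears in the text on RNA extraction. All 14 keratinocyte markers had a probe, and their median intensity percentile among probes was 99.1. For the 9 skeletal muscle markers with a probe it was 98.7. None of the markers of either list was at or below 0 on any array.

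The promoters of Il6, Lif and Socs3 are shown because these 3 members were called higher in vanillin skin than in both other groups. They come from RefSeq, in the mouse build GRCm38.p6, and run from 250 bases before to 50 bases after a transcription start, 5′ to 3′ on the gene's strand. That table held 9 of the 10 members, with 11 promoters. Capitals mark matches to TTCNNNGAA, the core letters of a STAT site, and to TGANTCA, the core letters of a site for AP-1 factors such as Fos. Each motif reads the same on both strands, and no match of one overlapped a match of the other. The regions are chr5:30012864-30013163 (plus strand) for Il6, chr11:4257318-4257617 (plus strand) for Lif and chr11:117969317-117969616 (minus strand) for Socs3.

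Il6: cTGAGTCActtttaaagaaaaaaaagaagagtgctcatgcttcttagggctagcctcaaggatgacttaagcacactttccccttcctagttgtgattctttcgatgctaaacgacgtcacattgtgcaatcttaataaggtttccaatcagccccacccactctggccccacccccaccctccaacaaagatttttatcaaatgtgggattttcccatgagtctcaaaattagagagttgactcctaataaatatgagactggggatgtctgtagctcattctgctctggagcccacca
Lif: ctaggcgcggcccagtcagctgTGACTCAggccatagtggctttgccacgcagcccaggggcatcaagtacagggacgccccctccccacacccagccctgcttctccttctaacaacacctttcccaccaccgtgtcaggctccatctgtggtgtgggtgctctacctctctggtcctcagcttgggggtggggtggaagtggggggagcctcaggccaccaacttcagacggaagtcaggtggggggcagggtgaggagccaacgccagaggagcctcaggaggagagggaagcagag
Socs3: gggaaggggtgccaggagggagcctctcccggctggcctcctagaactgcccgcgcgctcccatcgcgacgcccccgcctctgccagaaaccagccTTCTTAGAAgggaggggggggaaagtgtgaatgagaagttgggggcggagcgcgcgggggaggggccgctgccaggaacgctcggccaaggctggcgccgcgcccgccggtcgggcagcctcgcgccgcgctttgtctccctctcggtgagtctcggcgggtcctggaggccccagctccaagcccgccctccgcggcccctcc

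Among the 9 members with a promoter, 1 held TTCNNNGAA: Socs3, with TTCTTAGAA from base 97 to base 105 of the printed sequence. Of all 32851 promoters of the same length 8.3% held this motif, and 9.55% of the 27025 genes had at least 1 promoter with it. The AP-1 core was found in 4 members. It was TGAGTCA at base 2 of the Il6 promoter and TGACTCA at base 23 of that of Lif. The others were a promoter of Il11, with TGAGTCA, and that of Osmr, with TGATTCA. Of all promoters 7.81% held that motif, and 8.97% of all genes had at least 1 promoter with it. A match describes the letters of this window and is not evidence that a factor was bound there.

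Among the ligands, Il6 encodes interleukin-6, the inflammatory cytokine after which the family is named. Its log2 intensity was 5.54, 6.29 and 6.17 on the mock arrays, 6.07, 5.67 and 6.13 on the IMQ arrays and 6.96, 7.11 and 6.85 on the vanillin arrays. All vanillin arrays lay above every mock and IMQ array, and mock and IMQ overlapped. The level was 1.96-fold higher than in mock skin, a log2 fold change of 0.97 ± 0.21 (SE, limma adjusted p = 0.00799). Against IMQ it rose by 1.01 ± 0.21 (limma adjusted p = 0.00600), while IMQ against mock gave -0.04 with a 95% interval from -0.51 to 0.43. The probe was dim, at percentile 12.5 of all probes by mean intensity.

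Lif, which encodes leukaemia inhibitory factor, read 7.58, 7.20 and 7.34 on the mock arrays, 7.62, 7.68 and 7.40 on the IMQ arrays and 8.48, 8.41 and 8.05 on the vanillin arrays. As for Il6, the vanillin arrays were all above the other 6. Against mock it rose by 0.94 ± 0.15 log2 units (SE, limma adjusted p = 0.00188), a 1.92-fold difference. Against IMQ the rise was 0.75 ± 0.15 (limma adjusted p = 0.00567). Imiquimod alone gave 0.19, with a 95% interval from -0.15 to 0.53. The probe lay at percentile 30.6 by mean intensity.

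Osm encodes oncostatin M, a cytokine made by T cells, macrophages and neutrophils that acts on keratinocytes. Its log2 intensity was 10.89, 11.00 and 10.82 on the mock arrays, 12.48, 12.35 and 12.62 on the IMQ arrays and 11.31, 11.17 and 12.07 on the vanillin arrays. Every vanillin array lay between the highest mock and the lowest IMQ array, with replicate 3 closest to IMQ. Osm was 2.98-fold higher in IMQ than in mock skin, at 1.58 ± 0.21 log2 units (SE, limma adjusted p = 0.000356). With vanillin it fell by 0.96 from IMQ (SE 0.21, limma adjusted p = 0.00839), a 1.95-fold difference. Against mock the vanillin group read 0.61 ± 0.21 (limma adjusted p = 0.0656) and was not called. Without vanillin replicate 3 the values were -1.24 (adjusted p = 0.000382) against IMQ and 0.33 (adjusted p = 0.0564) against mock. Without vanillin replicate 2 the difference from mock was 0.79 and was called (adjusted p = 0.0327).

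Il11 encodes interleukin-11, a cytokine of stromal cells. It read 10.66, 10.80 and 10.57 on the mock arrays, 11.16, 11.03 and 11.38 on the IMQ arrays and 10.72, 10.51 and 11.33 on the vanillin arrays. The IMQ arrays were above all mock arrays, but the change of 0.52 ± 0.20 (SE) was not called (limma adjusted p = 0.0553). Vanillin arrays overlapped both other groups, since replicate 3 alone lay in the IMQ range. Without that array vanillin against IMQ was -0.57 (limma adjusted p = 0.00908) in place of -0.34 (adjusted p = 0.206), and IMQ against mock was called at the same size (adjusted p = 0.00587). Without vanillin replicate 2 IMQ against mock was called as well.

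Among the receptors, Osmr encodes the oncostatin M receptor chain that pairs with gp130. Its readings were 11.33, 11.46 and 11.61 in mock, 11.49, 11.55 and 11.48 in IMQ and 11.83, 11.71 and 11.66 in vanillin skin. The vanillin arrays lay above all the others by a small margin. No comparison was called: vanillin against IMQ gave 0.22, with a 95% interval from 0.01 to 0.44 (limma adjusted p = 0.0900), and vanillin against mock gave 0.27 (adjusted p = 0.0735). The first of these was called without mock replicate 1 (adjusted p = 0.0498) and the second without mock replicate 3 (adjusted p = 0.0390). Imiquimod alone gave 0.04, with a 95% interval from -0.18 to 0.26, so Osm rose in IMQ skin beside a receptor reading that did not pass the test.

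Il6st, the gene of gp130, read 12.19, 12.51 and 12.66 on the mock arrays, 12.32, 12.21 and 12.26 on the IMQ arrays and 12.02, 11.98 and 11.96 on the vanillin arrays. The vanillin arrays were the lowest, and mock and IMQ overlapped. Against mock it fell by 0.47 with vanillin (SE 0.12, limma adjusted p = 0.0194). That call was lost without mock replicate 2, mock replicate 3 or vanillin replicate 2 (adjusted p up to 0.0657), and in a fit of just these groups (0.0683). The steps from mock to IMQ (-0.19, limma adjusted p = 0.219) and from IMQ to vanillin (-0.28, adjusted p = 0.0904) were not called, although both were without mock replicate 1, at adjusted p = 0.0128 and 0.0163.

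Il6ra encodes the interleukin-6 binding chain, and its probes went in opposite directions. The brighter probe read 11.82, 11.74 and 11.62 in mock, 12.35, 12.41 and 12.36 in IMQ and 12.09, 12.23 and 12.16 in vanillin skin, 3 groups without overlap. It rose by 0.65 ± 0.09 with IMQ (SE, limma adjusted p = 0.000318) and by 0.43 ± 0.09 in vanillin against mock (adjusted p = 0.00584). The dimmer probe read 9.39, 9.56 and 9.47 in mock, 9.15, 9.18 and 9.11 in IMQ and 9.42, 9.22 and 8.95 in vanillin skin. It fell by 0.33 with IMQ (SE 0.12, limma adjusted p = 0.0475). Leaving out any single array other than vanillin replicate 1 or 3 ended this call, so 7 of 9 such fits did (adjusted p up to 0.130). The mean of both probes gave 0.16 in IMQ skin and 0.08 in vanillin skin, each against mock and neither of them called. Which transcripts each probe reads is not given in the sources used here, so the direction of Il6ra is uncertain.

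Lifr, the receptor chain for leukaemia inhibitory factor, also had probes that differed. The brighter one read 11.15, 11.45 and 11.68 in mock, 11.11, 11.08 and 11.09 in IMQ and 10.93, 10.95 and 10.96 in vanillin skin. Its fall of 0.48 in vanillin against mock (SE 0.13, limma adjusted p = 0.0216) was called, but not without mock replicate 2 or 3 or vanillin replicate 1 or 2 (adjusted p up to 0.0632), nor in a fit of just these groups (0.0741). IMQ against mock read -0.33 (limma adjusted p = 0.0506) and passed without mock replicate 1, at -0.47 (adjusted p = 0.00364). The dimmer probe read 8.0, 7.83 and 7.86 in mock, 7.29, 7.41 and 7.31 in IMQ and 8.01, 7.95 and 7.68 in vanillin skin. By that probe Lifr fell by 0.56 with IMQ (SE 0.11, limma adjusted p = 0.00224) and rose by 0.54 ± 0.11 from IMQ with vanillin (adjusted p = 0.00543). Against mock the vanillin value was then -0.02, with a 95% interval from -0.26 to 0.22.

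Stat3 encodes the transcription factor that carries the signal to the nucleus. It read 11.41, 11.40 and 11.14 on the mock arrays, 10.18, 10.18 and 10.06 on the IMQ arrays and 10.95, 10.62 and 10.61 on the vanillin arrays. The 3 groups did not overlap, with vanillin in the middle. Stat3 fell by 1.18 with IMQ (SE 0.12, limma adjusted p = 8.74e-05), a 2.26-fold difference. With vanillin it rose by 0.59 ± 0.12 from IMQ (adjusted p = 0.00649), and it remained lower than in mock by 1.51-fold, at -0.59 ± 0.12 (adjusted p = 0.00702). This is messenger RNA, and the phosphorylation that activates the protein was not measured.

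Socs3, the feedback inhibitor, read 12.31, 12.46 and 12.72 in mock, 12.56, 12.48 and 12.45 in IMQ and 13.00, 12.95 and 13.07 in vanillin skin. Mock and IMQ overlapped fully, and all vanillin arrays were higher. Socs3 rose by 0.51 ± 0.11 against IMQ (SE, limma adjusted p = 0.00826) and by 0.51 ± 0.11 against mock (adjusted p = 0.00979), each a 1.42-fold difference. For IMQ against mock the change was 0.00, with a 95% interval from -0.26 to 0.25.

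**Figure D2:**
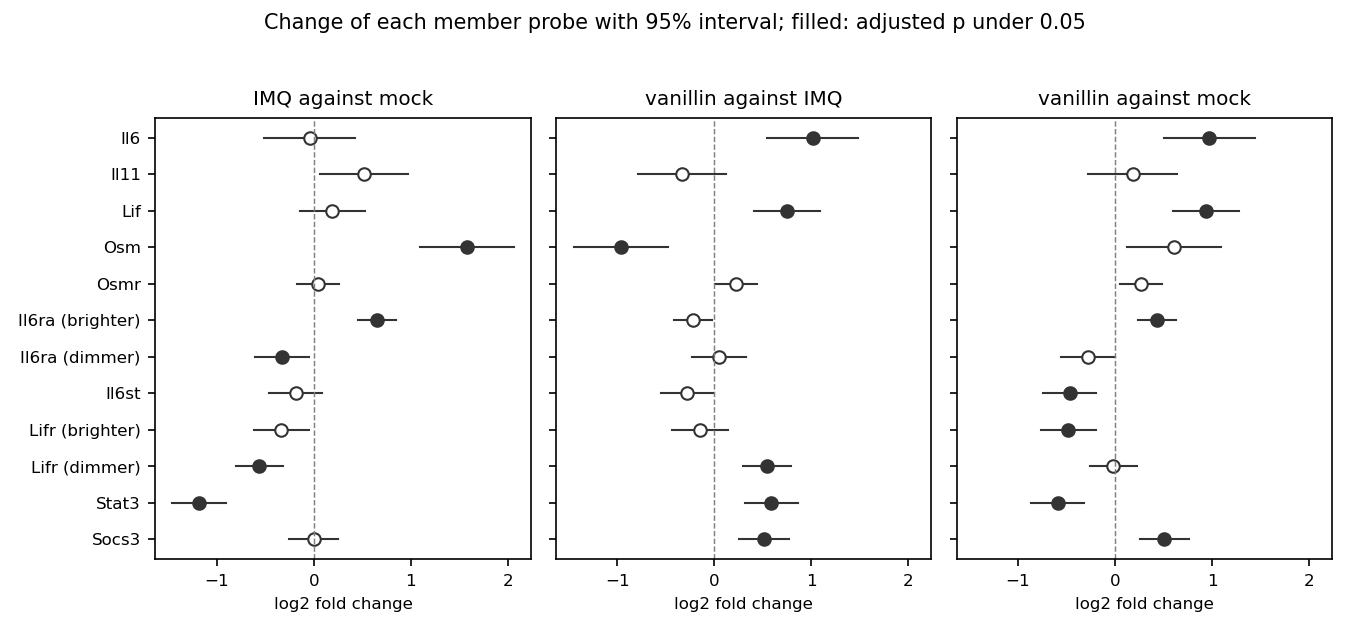
The log2 fold change of each member probe is plotted for the 3 comparisons, with its 95% interval from the limma fit as a line and a filled point where the adjusted p was under 0.05. Osm (1.58) and Stat3 (-1.18) have the largest changes with IMQ, and Il6 (1.01), Lif (0.75) and Socs3 (0.51) rise in vanillin against IMQ while Osm (-0.96) falls.

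The genes most like a member were sought for Il6, Osm and Stat3, the members whose highest and lowest group means differed by at least 1 log2 unit. Likeness was the root mean square difference of log2 values over the 9 arrays, after each gene was centred on its own mean, over 17709 genes. Nearest to Il6 were Rlbp1 (0.151 log2 units), Tnfaip6 (0.219) and Tsga10ip (0.233). Nearest to Osm were Hoxd10 (0.058), the olfactory receptor gene Olfr1137 (0.072) and Slc2a7 (0.075). Nearest to Stat3 were Scd3 (0.050), Crtc3 (0.050) and St6galnac4 (0.061). Il11, whose group means differed by less (0.52), was nearest to the olfactory receptor genes Olfr1262 (0.046) and Olfr95 (0.049), and to Mucl3 (0.056). Probe sequences were not given in the sources used here, so the specificity of the Osm and Il11 probes was not tested. Likeness over 9 arrays in 3 groups is a description only.

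Further genes of the pathway came from lists of 98 genes, of which 85 had a probe. Of those 85 genes 16 had several probes, and for 12 of them the probes differed in whether they were called in at least 1 comparison. The counts below stand beside the shares of all named genes called, 55.9% in IMQ against mock, 42.8% in vanillin against IMQ and 29.3% in vanillin against mock. Among the other ligands 3 of 7 measured were called higher with IMQ and none lower. Ebi3, a subunit of interleukin-27, rose by 0.86 ± 0.08 (SE, limma adjusted p = 5.19e-05). Its partner Il27 rose by 0.72 ± 0.20, a call lost without IMQ replicate 3 (adjusted p = 0.0510). Cntf, ciliary neurotrophic factor, rose by 0.48 ± 0.12. From IMQ to vanillin 1 ligand was called higher and 2 lower, with Cntf at -1.13 ± 0.12 and Il31, a cytokine of itch on a very dim probe, at -0.79 ± 0.13, while Ebi3 rose by 0.30 ± 0.08, a call lost without IMQ replicate 1 or 3 (limma adjusted p up to 0.0807). Against mock Ebi3 was higher with vanillin, at 1.16 ± 0.08, and Cntf (-0.66 ± 0.12) and Il31 (-0.64 ± 0.13) were lower. Of the 3 measured receptor chains, Il31ra, which pairs with Osmr to bind interleukin-31, fell by 0.83 with IMQ and rose by 0.88 with vanillin (SE 0.14 each). Il27ra, the receptor chain for interleukin-27, rose by 0.42 ± 0.13 with IMQ, a call lost without mock replicate 2 or 3 or IMQ replicate 1 or 3 (limma adjusted p up to 0.0780).

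Of 8 measured JAK kinases and other STATs, 2 were called higher and 5 lower with IMQ. Jak2 fell by 1.34 (SE 0.09, limma adjusted p = 1.23e-05) and Stat2 by 0.76 (SE 0.14), while Jak1, a main kinase of gp130, rose by 0.94 ± 0.13. Stat6, the STAT of interleukin-4, rose by 0.50 ± 0.10, and Stat5a read -0.46 ± 0.12. The call of Stat4 as lower with IMQ was lost in some fits with 1 array left out (limma adjusted p up to 0.120). With vanillin 2 rose and 1 fell against IMQ, and Jak2 was higher by 0.72 ± 0.09. The changes of Jak1 (-0.44 ± 0.13) and Stat2 (0.44 ± 0.14) were called, but each call was lost without any one IMQ array or without vanillin replicate 1 or 2 (limma adjusted p up to 0.0739 and 0.0997). Against mock 1 was higher and 4 were lower, with Jak2 at -0.62 ± 0.09, Jak3 at -0.67 ± 0.15, Stat5a at -0.51 ± 0.12, Stat4 at -0.48 ± 0.12 and Jak1 at 0.49 ± 0.13. The call of Jak1 was lost without vanillin replicate 2 or 3 (limma adjusted p up to 0.0561), and that of Stat4 without mock replicate 2 or 3 or vanillin replicate 2 (up to 0.0724). By their dimmer probes Jak1 read 0.07 (limma adjusted p = 0.759) and Stat4 -0.32 (adjusted p = 0.132) against mock, neither of them called. Jak2 thus lay between mock and IMQ in vanillin skin, as Stat3 did.

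Of the 15 inhibitors of JAK-STAT signalling other than Socs3, 3 were called higher and 8 lower with IMQ. Socs6 fell by 0.82 (SE 0.10) and Socs2 by 0.73 (SE 0.11), and Socs5 rose by 0.75 ± 0.13. Pias4, a SUMO ligase that binds STATs, fell by 0.64 (SE 0.08), and Socs4 by 0.996 (SE 0.21) by its brighter probe, beside 0.16 (limma adjusted p = 0.464) by the dimmer one. Pias2, counted as lower, read 0.39 (limma adjusted p = 0.0563) and -1.41 (adjusted p = 9.60e-05) by its dimmer probes. The calls of Cish, Pias3 and Ptpn11 with IMQ were lost in some fits with 1 array left out (limma adjusted p up to 0.124). From IMQ to vanillin 8 were higher and 1 lower, and the median change was 0.31 beside 0.06 over all named genes. Pias4 rose by 0.46 ± 0.08, its relative Pias2 by 0.44 ± 0.10, and the phosphatase gene Ptpn1 by 0.45 ± 0.08. The dimmer probes of Pias2 went opposite ways, at 0.84 (limma adjusted p = 0.00358) and -0.29 (adjusted p = 0.157). Socs4 rose by 1.10 ± 0.21 by its brighter probe but read 0.08 (limma adjusted p = 0.733) by the dimmer one. Socs1, which like Socs3 blocks JAK kinases, rose by 0.41 ± 0.11, a call lost without IMQ replicate 1 (adjusted p = 0.0548) or 2 (adjusted p = 0.0563). The calls of Socs5, Socs6, Ptpn2 and Ptpn6 in this comparison were also lost in some fits with 1 array left out (limma adjusted p up to 0.104). Against mock 2 were higher and 2 lower, with Socs1 at 0.52 ± 0.11 and the phosphatase gene Ptpn6 at 0.68 ± 0.09, Socs6 at -0.51 ± 0.10 and Socs2 at -0.50 ± 0.11.

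Among 25 measured genes known as STAT3 targets 9 were called higher and 5 lower with IMQ, so that 14 of 25 were called beside 55.9% of all named genes. Bcl3, an NF-kB cofactor, rose by 1.72 ± 0.10 (SE, limma adjusted p = 5.37e-06), the transcription factor gene Klf4 by 1.20 ± 0.11 and Ier3 by 0.96 ± 0.08. The cyclin gene Ccnd1 fell by 0.67 (SE 0.09) and the survivin gene Birc5 by 0.51 (SE 0.09). The calls of Bcl6, Mcl1 and Cebpd with IMQ were lost in some fits with 1 array left out (limma adjusted p up to 0.0800). The rise of Bcl3 thus stood beside a lower Stat3 and a Socs3 reading that did not pass the test. From IMQ to vanillin 7 targets were higher and 4 lower, 11 of 25 beside 42.8% of all named genes. Fos, an immediate early gene, had the largest rise of the list, at 1.74 ± 0.16 (limma adjusted p = 0.000539). Icam1, an adhesion molecule, rose by 0.75 ± 0.14 and the protease inhibitor gene Timp1 by 0.48 ± 0.09. The survival gene Bcl2l1 fell by 0.80 (SE 0.14). Ier3 read -0.30 ± 0.08, a call lost without any one IMQ array or without vanillin replicate 2 (limma adjusted p up to 0.0745). The calls of Pim1, Pim3, Bcl6, Irf1, Il4ra and Klf4 in this comparison were also lost in some fits with 1 array left out (limma adjusted p up to 0.136). Against mock 10 were higher and 4 lower, 14 of 25 beside 29.3%, with Fos at 2.43 ± 0.16, Bcl3 at 1.62 ± 0.10, Klf4 at 0.88 ± 0.11, Timp1 at 0.84 ± 0.09 and Ier3 at 0.67 ± 0.08. The calls of Irf1, Il4ra and Batf were lost in some fits with 1 array left out (limma adjusted p up to 0.0901). By dimmer probes Junb read -0.29 (limma adjusted p = 0.139) and Irf1 -0.48 (adjusted p = 0.205), neither of them called. Those of Birc5, counted as lower, read -0.07 (adjusted p = 0.686) and -0.41 (adjusted p = 0.0210). The median change of the list was 0.14, 0.14 and 0.20 in the 3 comparisons, beside -0.06, 0.06 and 0.01 for all named genes.

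Acute phase genes, many of which interleukin-6 induces in liver, gave 6 higher and 5 lower of 17 with IMQ. Lcn2, the gene of an iron-scavenging protein that is also on the list of neutrophil markers, rose by 2.20 ± 0.10 (SE, limma adjusted p = 1.46e-06), while the haptoglobin gene Hp fell by 0.89 (SE 0.09) and the lipopolysaccharide-binding protein gene Lbp by 0.79 (SE 0.11). The haemopexin gene Hpx rose by 0.83 ± 0.16 and Lrg1 fell by 0.76 (SE 0.15), and the fibrinogen gene Fgg read -1.24 ± 0.24 on one of the dimmest probes of the array. From IMQ to vanillin 5 were higher and 2 lower, with Hp at 0.86 ± 0.09, Lcn2 at 0.61 ± 0.10, Lbp at 0.58 ± 0.11, Hpx at -0.66 ± 0.16 and Orm1 at -0.31 ± 0.09. The call of Orm1 was lost without any one IMQ array or vanillin replicate 2 (limma adjusted p up to 0.0939). Those of Serpina3n and Fgg were lost in some fits with 1 array left out (up to 0.149). So were those of Reg3g and Il1rn in IMQ against mock (up to 0.0624). Against mock 3 were higher and 1 lower, Lcn2 at 2.81 ± 0.10, the interleukin-1 receptor antagonist gene Il1rn at 0.64 ± 0.12, Saa3 at 0.63 ± 0.11 and Lrg1 at -1.11 ± 0.15. Of the 10 measured adaptors, kinases and receptor-shedding proteases, 3 were higher and 2 lower with IMQ. The docking protein gene Gab1 rose by 2.06 ± 0.15 with IMQ (limma adjusted p = 1.75e-05) and fell by 1.40 with vanillin (SE 0.15, adjusted p = 0.000861), and against mock it stood at 0.65 ± 0.15. The adaptor gene Shc1 rose by 0.78 ± 0.09 with IMQ and stood 0.53 ± 0.09 above mock with vanillin, though its dimmer probe read 0.11 and -0.01 and was not called. Hras fell by 0.52 with IMQ (SE 0.13) and rose by 0.53 ± 0.13 with vanillin, Src fell by 0.30 with IMQ (SE 0.08), and Sos1 rose by 0.50 ± 0.16 with vanillin. The call of Sos1 was lost without IMQ replicate 1 or 3 or vanillin replicate 1 or 2 (limma adjusted p up to 0.119). Adam17, a protease that sheds the interleukin-6 receptor, rose by 0.49 ± 0.11 with IMQ and by a further 0.42 ± 0.11 with vanillin, to 0.91 ± 0.11 above mock. Its step from IMQ to vanillin was not called without IMQ replicate 1 or 3 or vanillin replicate 2 (limma adjusted p up to 0.0601). For these 10 genes the counts were 3 higher and 1 lower in vanillin against IMQ, and 3 higher and none lower against mock.

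**Figure D3:**
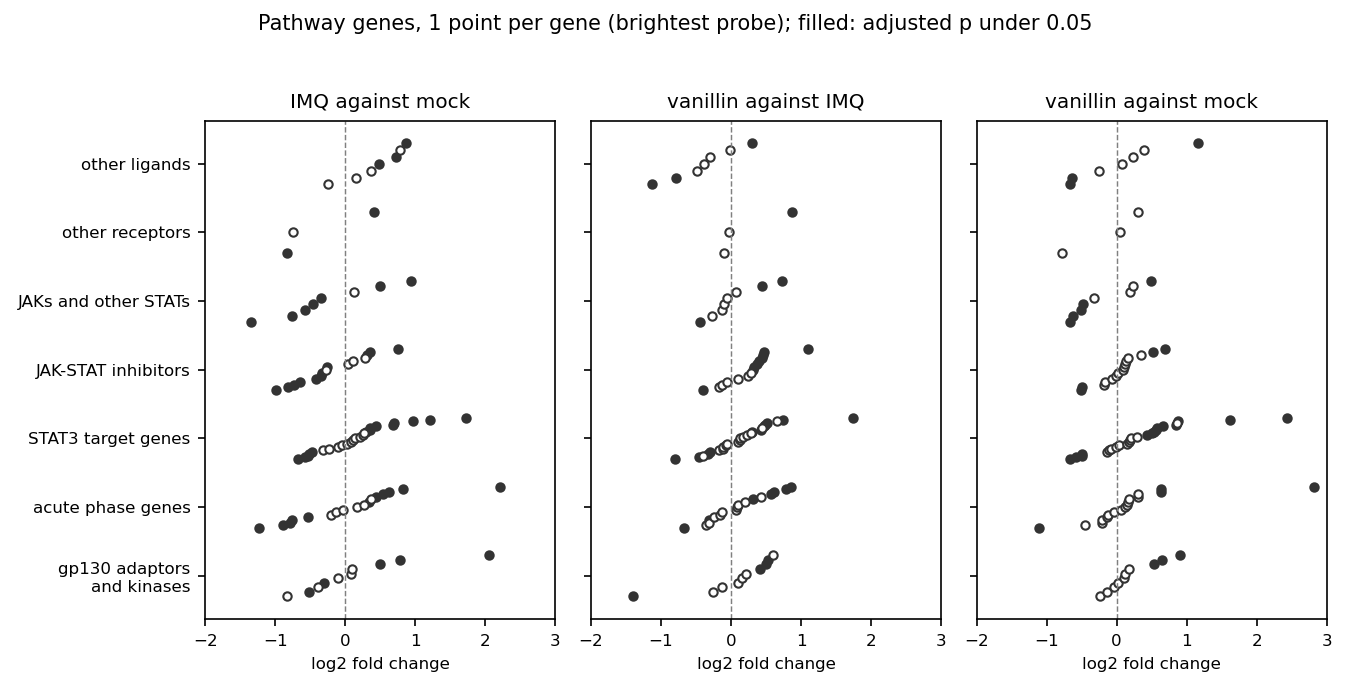
Each point is the log2 fold change of 1 pathway gene by its brightest probe, in rows by list and panels by comparison, filled where the adjusted p was under 0.05. The genes farthest from 0 are Gab1 (2.06), Lcn2 (2.20) and Bcl3 (1.72) with IMQ, Fos (1.74) and Gab1 (-1.40) in vanillin against IMQ, and Lcn2 (2.81) and Fos (2.43) in vanillin against mock.

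Whole tissue was measured, so fewer cells of a type and less RNA per cell cannot be told apart. Some markers of the cells that make Osm moved in IMQ skin as well, where 24.3% of all named genes were called higher and 31.6% lower. For neutrophils 5 of 14 measured markers were called higher and 3 lower, and their summed intensity was 7991 to 8357 in mock, 129368 to 133504 in IMQ and 119063 to 129232 in vanillin skin. S100a9, which rose by 5.54 log2 units with IMQ, makes up most of the sum in IMQ skin. The 3 called lower were Camp (-0.71), Ngp (-0.68) and Retnlg (-0.54), and S100a8 read -0.06 on a dim probe. The mean log2 intensity of the neutrophil markers was 8.37 to 8.39 in mock, 8.95 to 9.04 in IMQ and 9.36 to 9.56 in vanillin skin. For T cells 6 of 10 were higher and 1 lower with IMQ, with sums of 12671 to 13454 in mock, 15026 to 15220 in IMQ and 15460 to 15897 in vanillin skin. Cd3e makes up most of that sum and was not called with IMQ (limma adjusted p = 0.339). The mean log2 intensity of the T cell markers was 8.72 to 8.77 in mock, 9.46 in IMQ and 9.20 to 9.21 in vanillin skin, and so fell where the sum rose. With vanillin added 3 T cell markers were higher and 5 lower. For monocytes and macrophages the count with IMQ was 5 higher and 4 lower of 11, with sums of 30659 to 32386, 36763 to 38325 and 35862 to 37411. In vanillin against IMQ, where Osm fell, 9 neutrophil markers were higher and none lower, and 5 monocyte and macrophage markers were higher and 2 lower, beside 26.2% and 16.6% of all named genes. None of these markers was at or below 0 on any array, though few probes of any kind were. Their part in the change of Osm was not tested.

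Beside the fall of Stat3 with IMQ, 0 of 10 endothelial markers were called higher and 7 lower, 0 of 11 adipocyte markers higher and 8 lower, 2 of 11 fibroblast markers higher and 8 lower, and 0 of 9 muscle markers higher and 5 lower. The shares of all named genes were 24.3% higher and 31.6% lower. In vanillin against IMQ, where Stat3 rose, 5, 7, 5 and 8 of them were higher and 0, 1, 1 and 0 lower, beside 26.2% and 16.6% of all named genes. The summed intensity of the endothelial markers was 28955 to 30772 in mock, 19693 to 20384 in IMQ and 24141 to 24653 in vanillin skin, the order that Stat3 had. Adipocyte sums were 480653 to 505087, 304986 to 308177 and 350716 to 366838, and fibroblast sums 347451 to 368071, 251333 to 253298 and 278029 to 283966, in the same order. Dcn makes up most of the fibroblast sum in IMQ skin. Muscle sums were 416251 to 459528, 344508 to 350626 and 438852 to 457262. Of 14 keratinocyte markers 4 were called higher and 4 lower with IMQ, and 1 higher and 2 lower from IMQ to vanillin. Keratinocyte sums did not have the order of Stat3, at 1.24e+06 to 1.32e+06, 1.57e+06 to 1.61e+06 and 1.64e+06 to 1.72e+06. None of these markers was at or below 0 on any array, though few probes of any kind were. Their part in the change of Stat3 was not tested.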

How the data were processed

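The authors deposited linear probe intensities of 9 arrays that the values show to be equalised, with medians of 629 to 631. The submitters' processing notes name limma without a version, and the scanner, background correction and filters were not given in the sources used here. Equalised intensities cannot show a change of total signal, and having 3 arrays a group limits precision. Values under 1 were set to 1 and log2 was taken. A model with group means was fitted to all 9 arrays in limma 3.58.1 under R 4.3.3, and p-values were adjusted by Benjamini-Hochberg over all 26423 probes. The probe table named 1 gene for 20377 probes and none for 6046, and 2126 older symbols were updated through RefSeq for GRCm38.p6. A gene was represented by its brightest probe. All members were described, with up to 5 genes of smallest p per list and comparison among those called, and any past 1 log2 unit. Members and lists were chosen with earlier results of these data known. The fit was tested on simulated data. Same-numbered arrays were not treated as pairs, since not every such pair deviated together. With 3 arrays a group this cannot settle whether arrays of the same number share a batch. Alternatives are given in the closing section.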

Additional observations from a re-analysis of the deposited data

How the results depend on the processing

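Of 807 member results refitted under an alternative, 732 kept their direction where called and their side of the threshold, 38 lost a call, 37 gained one and 0 reversed. For IMQ against mock the count of members called was 3, and 5 with an offset of 16, without the lowest 25% or 50% of probes or with a trended robust prior, and 7 with array weights. For vanillin against IMQ it was 5, and 9 with array weights and 1 when a change of at least 1 log2 unit was also asked. For vanillin against mock that last rule gave 0 in place of 7, since the largest change was 0.97. With 1 array left out the counts ran from 3 to 5, from 5 to 8 and from 5 to 7 in the same order. The replicate block gave 3, 5 and 7 members, and the dimmer Il6ra probe lost its IMQ against mock call under it (adjusted p = 0.0634). Same-numbered arrays correlated from -0.265 to 0.222 in their deviations from group means, and 1 of 9 arrays matched its own number best. The mean of all probes turned Birc5 to 0.37 for vanillin against IMQ, and Ptpn2 to -0.23 and Hif1a to 0.32 for vanillin against mock. Of 5790 results on list genes 310 lost a call and 128 gained one, and of 1104 counts over the lists 140 moved by more than 1.5 times. The cause was not tested. The probes of Il6 and Il31 were dim. Leaving out the lowest 25% of probes removed Il6, and the lowest 50% removed Il6 and Lif.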
